A study of Gallus gallus with 10 samples.

Results

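The genes described here are ANLN and the 100 genes whose levels followed it most closely over the kidneys of broiler chickens. ANLN encodes anillin, the scaffold protein of the ring that pinches a dividing cell apart. The table of the study counts 17108 chicken genes, of which 10410 had a mean CPM (counted fragments scaled to a common library total) of 5 or more. Among these 10410 genes, the 100 with the highest Pearson correlation (r) of log2(CPM + 0.5) with ANLN over all 10 libraries were taken, which with ANLN gives 101 genes. The genes were thus chosen by their measured CPM in these same libraries, so their likeness to ANLN is a description and carries no test.

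Kidney RNA was sequenced from 10 broilers, 1 library per bird, at 21 days post-hatch, the end of a feeding trial in which the diets differed in calcium (Ca). The groups were 0.8% Ca (3 birds, replicates 1, 3 and 4), 1.0% Ca (4 birds, replicates 1 to 4) and 1.2% Ca (3 birds, replicates 1 to 3). All birds were of a single commercial broiler strain, started on the diets as 1-day-old chicks and kept in floor pens with many birds to a pen, and RNA came from a piece of kidney tissue, so every value is an average over the cell types in that piece. Which region of the kidney was taken is not given in the sources used here. In such bulk samples, fewer cells of a type and less RNA per cell cannot be told apart.

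A cell that divides copies its DNA, condenses its chromosomes, attaches them to a spindle of microtubules, and then splits by the contractile ring. The genes for these steps are switched on in waves along the cell cycle, so tissues with more cycling cells carry more of all of these transcripts. In the kidney of a growing animal, tubule cells and other resident cells still divide, whereas most cells of an adult kidney rest. The roles given below for single genes are known mainly from human cells.

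Libraries held between 6176553 and 7857813 counted fragments, and 14124 to 14379 genes had at least 1 count. The column headers of the count table and the read table of the study give 2 lanes, whereas its methods speak of a single lane, and the headers are followed here. All 1.2% Ca libraries and replicates 1 and 2 at 1.0% Ca were on lane 1, and all 0.8% Ca libraries and replicates 3 and 4 at 1.0% Ca were on lane 2. Between 0.8% and 1.2% Ca, lane and diet therefore cannot be told apart. The label kidney could not be checked on tubule genes, because 0 of the 16 tubule markers listed could be identified by name in the table.

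Of the 101 genes, 28 could be given a name from the gene tables of the study and 73 are known here only by their Ensembl identifiers. The study named the genes that it had called as changed in these same kidneys, so the named genes are not a random draw. The lists of genes used below were written with earlier results of these data known, so counts of list genes are a description and carry no test. With these limits, 27 of the 28 names stood in lists of cell division genes, and the remaining one was POLQ, the DNA polymerase theta of end joining repair. All 4 identified genes of the cytokinesis list belonged to the set (ANLN, RACGAP1, KIF23 and CIT), as did all 3 mitotic kinases and cyclins (CDK1, CCNB2 and PLK4). The set also held 6 of 7 identified spindle and motor genes, 7 of 8 centromere, kinetochore and checkpoint genes, and 4 of 6 genes of chromosome structure. Both identified genes of DNA replication and nucleotide supply (RRM2 and UHRF1) and the single identified repair gene of its list (BRCA1) belonged too. Most listed genes could not be identified and were not looked at. In the order given, the lists held 12, 26, 19, 38, 18, 43 and 21 genes. Outside the set, 119 of the 10309 other genes of mean CPM 5 or more had a name. None of the identified markers of endothelium (2 names with 3 identifiers), stroma (3 genes) or blood cells (3 genes) belonged to the set. The set holds only 101 of the 10410 genes of mean CPM 5 or more, so few markers would fall in it in any case. That count therefore does not show that the set is apart from these cell types. No gene of the lists of cell cycle transcription factors, cell cycle inhibitors or nephron progenitors could be identified.

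ANLN (ENSGALG00000012104, chromosome 2, 47314675 to 47343598 in the Galgal4 build, with 4657 bases of exons) had 8.26, 65.9 and 59.9 CPM in kidneys of replicates 1, 3 and 4 at 0.8% Ca. At 1.0% Ca it had 94.4, 86.3, 36.9 and 70.8 CPM in replicates 1 to 4, and at 1.2% Ca 156.1, 89.4 and 68.6 CPM in replicates 1 to 3. A single kidney at 0.8% Ca thus lay far below all the others, a kidney at 1.2% Ca lay above all the others, and the remaining 8 kidneys of the 3 diets lay between 36.9 and 94.4 CPM. The lowest value rested on 51 counts, with an exact Poisson 95% interval of 6.15 to 10.9 CPM, and the highest on 1163 counts, with an interval of 147.2 to 165.3 CPM. These intervals cover counting error only. The mean was 44.7 ± 31.7 CPM at 0.8% Ca (SD, n = 3), 72.1 ± 25.5 CPM at 1.0% Ca (n = 4) and 104.7 ± 45.7 CPM at 1.2% Ca (n = 3).

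The other genes of the set largely shared the lowest, next lowest and highest kidneys with ANLN. The order over all kidneys was close but not the same, with a median rank correlation with ANLN of 0.903. All 101 genes were lowest in replicate 1 at 0.8% Ca, 97 were highest in replicate 1 at 1.2% Ca, and 97 were next lowest in replicate 3 at 1.0% Ca. Among the 10309 other genes of mean CPM 5 or more, 18.9% were lowest in that 0.8% Ca kidney and 13.3% were highest in that 1.2% Ca kidney. The share next lowest in that 1.0% Ca kidney was 13.9%. The log2 level relative to each gene's own mean had a median over the 101 genes of −1.66, 0.12 and −0.04 at 0.8% Ca, of 0.43, 0.40, −0.47 and −0.0012 at 1.0% Ca, and of 0.79, 0.39 and 0.02 at 1.2% Ca, each in replicate order. The same median over the other genes stayed between −0.03 and 0.03 in every library. The summed level of the 101 genes was 2123, 5160 and 4653 CPM at 0.8% Ca, 6221, 6047, 3638 and 4910 CPM at 1.0% Ca, and 7729, 5934 and 4878 CPM at 1.2% Ca. In the heat map of the set, replicate 1 at 0.8% Ca, replicate 3 at 1.0% Ca and replicate 1 at 1.2% Ca stand out, whereas genes above and below their own mean mix in replicate 4 at 1.0% Ca (50 of 101 above) and replicate 3 at 1.2% Ca (58 of 101 above). In the read table of the study, replicate 3 at 1.0% Ca had the lowest share of aligned reads, followed by replicate 1 at 0.8% Ca. The highest share was that of replicate 1 at 1.2% Ca. Replicate 1 at 0.8% Ca also had the fewest counted fragments (6176553). The part of library quality in the levels of the set was not tested.

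**Figure D1:**
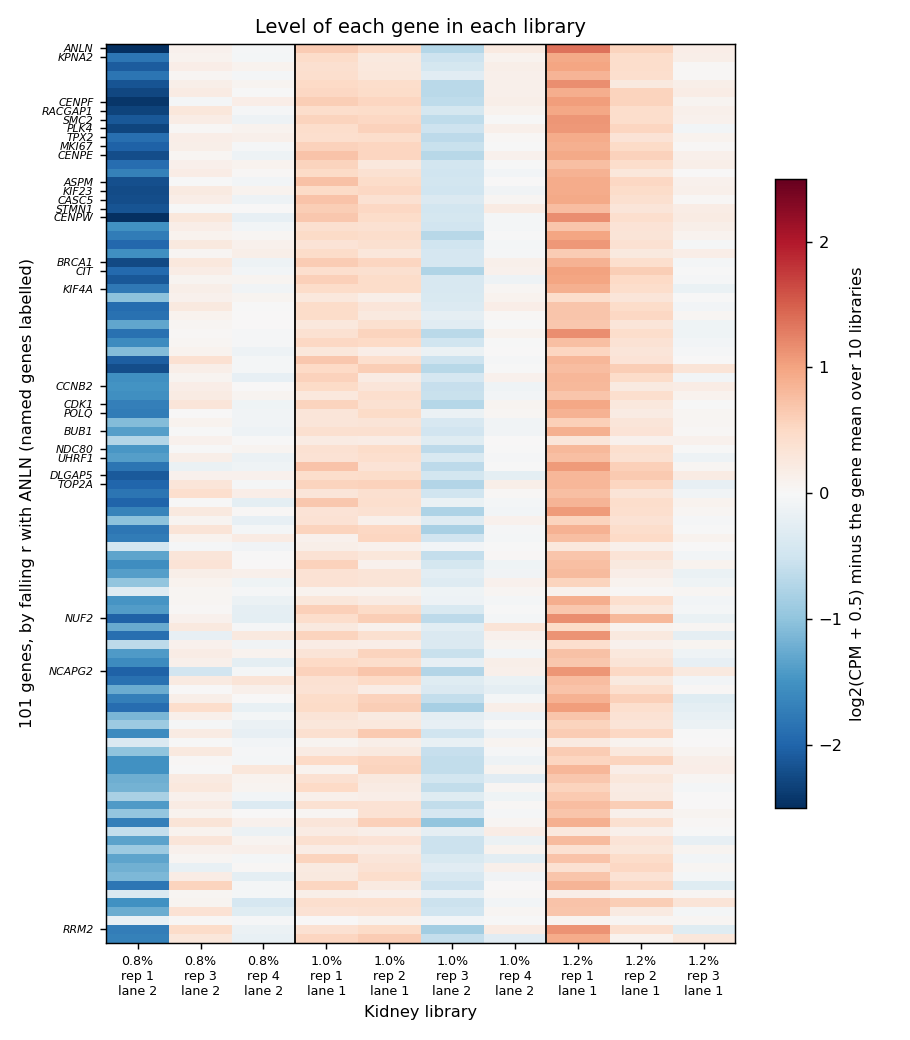
Level of each of the 101 genes (rows, ordered by falling r with ANLN, named genes labelled) in each of the 10 kidney libraries (columns, by dietary Ca, replicate and lane), as log2(CPM + 0.5) minus the mean of the gene over all libraries. Replicate 1 at 0.8% Ca is the lowest for all 101 genes, and replicate 1 at 1.2% Ca is the highest for 97 of them.

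The size of the change differed among the genes. The ratio of the kidney with the most ANLN to the kidney with the least was 18.9 for ANLN and had a median of 6.01 over the other 100 genes, with a range of 1.22 to 15.2. It was at least 2 for 95 genes of the set, at least 4 for 77 and at least 8 for 26. ANLN itself stood 8.44 times below the median of the 8 middle kidneys in replicate 1 at 0.8% Ca. The other 100 genes stood between 1.17 and 7.95 times below that median there. In replicate 1 at 1.2% Ca the genes of the set were 1.04 to 2.24 times their median over the 8 middle kidneys. For 100 of the 101 genes the Poisson 95% interval of the lowest kidney lay below all 8 middle kidneys. The exception was ENSGALG00000000516, whose interval reached 4.61 CPM against a lowest middle kidney of 4.48 CPM. This count is a description, because the genes were chosen to follow ANLN, which was lowest in that kidney. The intervals cover counting error only, and the same share was not computed over the other genes.

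The cytokinesis genes were among those that followed ANLN most closely. RACGAP1, which with the kinesin KIF23 forms the centralspindlin complex that marks the place of the furrow, had 5.505, 35.7 and 28.5 CPM in the 0.8% Ca kidneys. Its levels were 39.7, 40.4, 21.5 and 31.4 CPM at 1.0% Ca and 57.8, 39.9 and 31.9 CPM at 1.2% Ca (r = 0.994). Its 0.8 and 1.2% Ca kidneys overlapped, because replicate 3 at 0.8% Ca stood above replicate 3 at 1.2% Ca. KIF23 had 10.7, 61.6 and 55.9 CPM at 0.8% Ca, 72.7, 75.1, 36.9 and 49.3 CPM at 1.0% Ca, and 99.6, 71.8 and 57.5 CPM at 1.2% Ca (r = 0.990). CIT, the citron kinase of the midbody, was measured at lower levels, with 4.53, 21.5 and 17.9 CPM at 0.8% Ca, 25.4, 25.0, 10.9 and 20.4 CPM at 1.0% Ca, and 38.0, 29.2 and 18.6 CPM at 1.2% Ca. KIF23 and CIT overlapped between these diets in the same way. In all 3 genes the lowest kidney was 4.62 to 6.15 times below the median of the 8 middle kidneys.

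Spindle and motor genes followed. KPNA2, an importin alpha that carries spindle assembly factors, had the highest r with ANLN of all genes (0.997). It had 22.2, 83.8 and 76.4 CPM at 0.8% Ca, 108.3, 93.2, 55.4 and 83.6 CPM at 1.0% Ca, and 153.1, 107.2 and 87.0 CPM at 1.2% Ca. Every 1.2% Ca kidney stood above every 0.8% Ca kidney for KPNA2, by a margin of 87.0 over 83.8 CPM. TPX2, which activates Aurora A kinase on spindle microtubules, had 18.5, 78.8 and 76.0 CPM at 0.8% Ca, 94.1, 95.2, 44.2 and 71.3 CPM at 1.0% Ca, and 133.9, 88.2 and 73.8 CPM at 1.2% Ca. STMN1, the microtubule destabilizer stathmin, had 33.0, 149.4 and 150.6 CPM at 0.8% Ca, 231.4, 214.0, 109.5 and 173.8 CPM at 1.0% Ca, and 257.8, 186.5 and 170.9 CPM at 1.2% Ca. The 1.2% Ca kidneys of STMN1 all stood above its 0.8% Ca kidneys, whereas those of TPX2 overlapped. Per length of exon STMN1 was the most abundant gene of the set, with a mean of 185 CPM per kilobase against a median of 8.52 CPM per kilobase over the 100 genes and 18.5 over the other genes. ASPM, which works at spindle poles, KIF4A, a motor on chromosome arms, and DLGAP5, which stabilizes spindle fibres, had the same lowest kidney, with 18.3, 11.8 and 12.5 CPM in the lowest kidney. KIF15, a spindle kinesin, fell just outside the set with r = 0.931 and rank 144, and had 116.9 CPM in replicate 1 at 1.2% Ca and 22.8 CPM in replicate 1 at 0.8% Ca.

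Of the genes at the centromere and kinetochore, CENPE, the motor that brings chromosomes to the spindle equator, had 12.95, 64.3 and 57.1 CPM at 0.8% Ca. It had 102.3, 90.6, 38.3 and 67.5 CPM at 1.0% Ca and 121.3, 93.0 and 68.1 CPM at 1.2% Ca. The 1.2% Ca kidneys of CENPE again all stood above its 0.8% Ca kidneys, by 68.1 against 64.3 CPM at the closest. CENPF, a large protein of the outer kinetochore, reached 151.5 CPM in replicate 1 at 1.2% Ca, against 13.3 CPM in replicate 1 at 0.8% Ca. CENPW, a small histone-fold protein of the inner kinetochore, had the widest range after ANLN, with 34.5 CPM in replicate 1 at 1.2% Ca against 2.27 CPM in replicate 1 at 0.8% Ca, a ratio of 15.2. NDC80 and NUF2, subunits of the complex that holds microtubules, differed in that ratio (4.95 for NDC80 and 10.0 for NUF2). BUB1, a checkpoint kinase, was the least reduced of the 7 kinetochore genes of the set in the lowest kidney, at 2.70 times below its median of the 8 middle kidneys, and CASC5, the scaffold that BUB1 docks on, stood 5.24 times below.

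CDCA8, a subunit of the chromosomal passenger complex, was the identified gene of these division lists that departed most from ANLN (r = 0.642, rank 1501). It had 27.4, 48.5 and 48.0 CPM at 0.8% Ca, 48.6, 55.6, 37.2 and 38.9 CPM at 1.0% Ca, and 56.0, 105.0 and 86.2 CPM at 1.2% Ca. Its lowest kidney was the same as for ANLN, but its highest kidneys were replicates 2 and 3 at 1.2% Ca.

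The mitotic kinases and cyclins had r of 0.981 to 0.993. CDK1, the kinase that drives entry into mitosis, had 15.1, 62.5 and 47.2 CPM at 0.8% Ca, 75.3, 65.9, 30.7 and 53.1 CPM at 1.0% Ca, and 98.9, 61.4 and 50.7 CPM at 1.2% Ca. Its partner CCNB2, cyclin B2, had 17.2, 56.0 and 50.1 CPM at 0.8% Ca, 68.9, 61.5, 33.0 and 46.0 CPM at 1.0% Ca, and 87.8, 57.6 and 56.2 CPM at 1.2% Ca. PLK4, which starts the copying of centrioles, was at 46.8 CPM in the highest kidney and 4.05 CPM in the lowest. CDK1 overlapped between all 3 diets, while every 1.2% Ca value of CCNB2 was above every 0.8% Ca value, if only by 56.2 against 56.0 CPM.

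Among the genes of chromosome structure, MKI67, which encodes the proliferation antigen Ki-67, had 44.5, 202.1 and 178.9 CPM at 0.8% Ca. It had 274.5, 265.0, 123.5 and 181.6 CPM at 1.0% Ca and 340.6, 253.8 and 185.7 CPM at 1.2% Ca. TOP2A, the topoisomerase that untangles DNA, had 22.3, 109.6 and 87.0 CPM at 0.8% Ca, 130.7, 133.6, 53.6 and 98.6 CPM at 1.0% Ca, and 159.6, 129.6 and 77.5 CPM at 1.2% Ca. For both genes replicate 3 at 1.2% Ca lay below replicate 3 at 0.8% Ca, so these diets overlapped. SMC2, a core subunit of the condensin complexes, had 357.6 CPM in the highest kidney and 38.0 CPM in the lowest. NCAPG2, a subunit of condensin II, was one of the genes whose 1.2% Ca kidneys (40.5, 26.9 and 22.0 CPM) all stood above the 0.8% Ca kidneys (4.21, 13.2 and 17.8 CPM). NCAPG, its counterpart in condensin I, and LMNB2, a nuclear lamin, were outside the set with r of 0.907 and 0.945.

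The genes of DNA replication had lower r with ANLN than the cytokinesis genes, without a test of that difference. RRM2, a subunit of the reductase that makes deoxynucleotides, was the next to last gene of the set (r = 0.949), with 12.6, 59.9 and 39.1 CPM at 0.8% Ca. Its levels were 56.3, 59.96, 23.3 and 49.6 CPM at 1.0% Ca and 95.1, 57.0 and 35.1 CPM at 1.2% Ca. UHRF1, which keeps DNA methylation after replication, had 118.0 CPM in the highest kidney and 26.7 CPM in the lowest, a ratio of 4.42 that was the smallest of the named genes. BRCA1, a repair factor, had 7.29, 44.4 and 33.9 CPM at 0.8% Ca, 57.6, 53.7, 27.5 and 40.1 CPM at 1.0% Ca, and 68.2, 49.3 and 35.6 CPM at 1.2% Ca. Replicate 3 at 1.2% Ca lay below replicate 3 at 0.8% Ca for both RRM2 and BRCA1. POLQ had 54.2 CPM in the highest kidney and 8.42 CPM in the lowest. The plot of 8 named genes by diet and lane shows the same lowest and highest kidney from the cytokinesis genes to BRCA1.

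**Figure D2:**
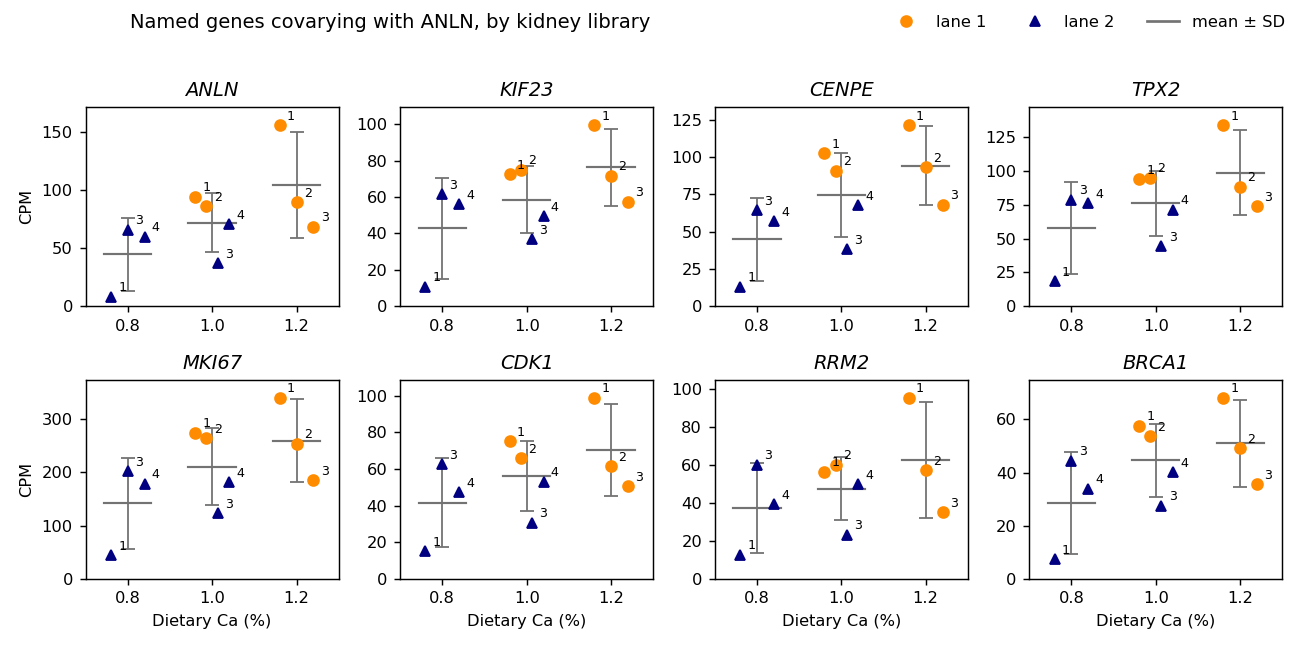
CPM (vertical axes, linear from 0) of ANLN, KIF23, CENPE, TPX2, MKI67, CDK1, RRM2 and BRCA1 in each kidney library by dietary Ca, with replicate numbers, lane 1 as circles, lane 2 as triangles, and the mean ± SD of each diet in grey. Replicate 1 at 0.8% Ca lies lowest and replicate 1 at 1.2% Ca highest in all 8 panels, and the kidneys at 1.0% Ca overlap with the remaining kidneys of both other diets.

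The 73 genes without a name had smaller ratios of highest to lowest kidney (median 4.89, against 8.09 for the 28 named genes) and lower levels (median mean CPM 20.2, against 54.7). Names came from genes that the study had called as changed in these same kidneys. The named and unnamed genes are therefore not like groups, and neither these gaps nor the share of names along r is a result about the unnamed genes. The closest to ANLN were ENSGALG00000005038 (r = 0.996), ENSGALG00000028373, ENSGALG00000017025 and ENSGALG00000013420 (each r = 0.995). ENSGALG00000017025 had 12.5, 63.7 and 60.7 CPM at 0.8% Ca, 82.1, 78.1, 36.0 and 63.4 CPM at 1.0% Ca, and 129.5, 68.6 and 63.6 CPM at 1.2% Ca. ENSGALG00000015874 and ENSGALG00000003231, also among the 15 genes of highest r, had ratios of 6.77 and 6.03. ANLN and the 20 genes of highest r together held 14 names, and the last 50 genes held 3. A small group of 6 unnamed genes changed by less than 2-fold between the highest and lowest kidney in spite of r above 0.95. The flattest, ENSGALG00000014286, had 176.3, 206.3 and 199.9 CPM at 0.8% Ca, 205.6, 215.1, 192.8 and 202.6 CPM at 1.0% Ca, and 214.4, 209.7 and 210.4 CPM at 1.2% Ca.

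At the limit of the set, RRM2 and ENSGALG00000016931 had r of 0.949 and were the last genes inside, and ENSGALG00000009854, ENSGALG00000006793 and ENSGALG00000009201 were just outside with 0.948 each. ENSGALG00000009854 also was highest in replicate 1 at 1.2% Ca (23.6 CPM) and lowest in replicate 1 at 0.8% Ca (5.18 CPM), so the limit cuts through a continuous run of genes. At the other end, ENSGALG00000000603 (r = −0.972), ENSGALG00000000419 (−0.960) and ENSGALG00000003282 (−0.948) ran opposite to ANLN. ENSGALG00000000603 had 47.4 CPM in replicate 1 at 1.2% Ca and 74.2 CPM in replicate 1 at 0.8% Ca.

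Over the 100 genes, r had a median of 0.975 and a range of 0.949 to 0.997, and the rank correlation (Spearman's rho) had a median of 0.903. Without replicate 1 at 0.8% Ca the median r was 0.935, with a lowest value of 0.815. Without both extreme kidneys, over the 8 that remain, it was 0.910, with a lowest value of 0.710, and 58 of the 100 genes were still above 0.9, against 55 of the 10309 other genes. These values are a description only, since the genes had been chosen on libraries that include these 8. After the mean of each diet was taken out, the median r was 0.973, and after the mean of each lane was taken out, 0.965. All points of these correlations share libraries and their totals, and the other genes had medians of 0.03 without both kidneys, 0.06 without diet means and −0.02 without lane means.

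**Figure D3:**
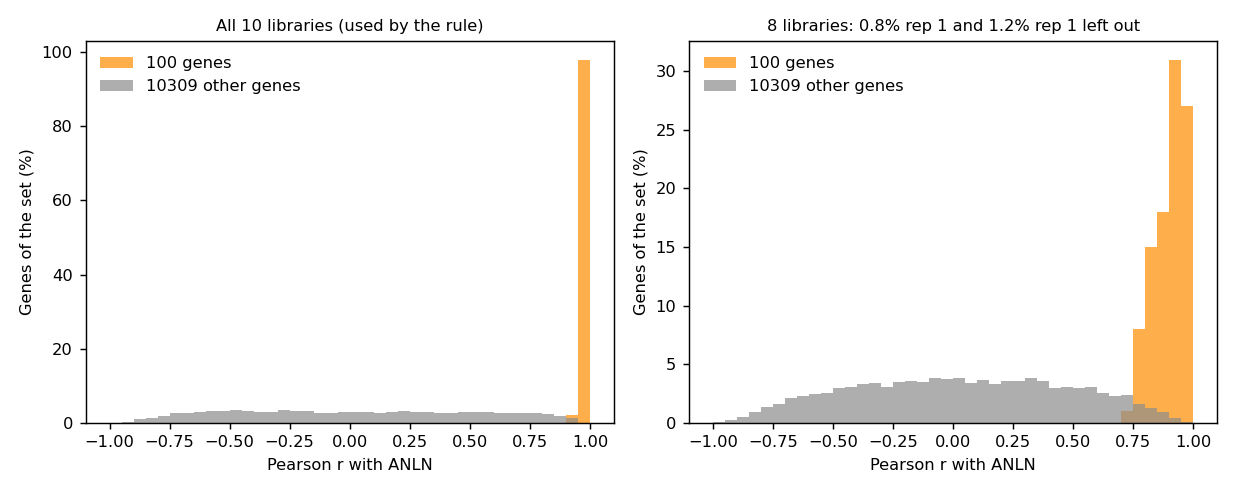
Share of genes (vertical axes, % of the set) by Pearson r with ANLN (horizontal axes) for the 100 genes (orange) and the 10309 other genes of mean CPM 5 or more (grey), over all 10 libraries on the left, which the choice of genes used, and over the 8 libraries left without replicate 1 at 0.8% Ca and replicate 1 at 1.2% Ca on the right. On the right the 100 genes lie between 0.710 and 0.989 with a median of 0.910, and the other genes have a median of 0.03.

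Features of the genes were then compared as a description. The median mean CPM, a value on which the choice had set a minimum, was 25.6 for the 100 genes and 43.4 for the other genes. Position played no part in the choice. Exon length did not enter it directly, but CPM was not scaled by length, so longer genes gather more counts and reach the minimum more easily. The genes of the set had longer exons in total (median 3533 bases, against 2410 bases in the other genes), and this gap is not independent of the choice. They lay on 25 chromosomes or linkage groups. Chromosomes 1, 3 and 4 held 11 each (10.9% of the set, against 13.5, 7.93 and 7.22% of the other genes). Chromosome 5 held 9 (8.91%, against 6.22%) and chromosome 2 held 8 (7.92%, against 8.81%). Chromosomes 6 and 8 held 7 each (6.93%, against 3.32 and 3.45%). There were 7 pairs of neighbours less than 200000 bases apart, the closest being DLGAP5 and ENSGALG00000012199 with 41431 bases between them. The same count was not computed for other sets of genes. The exons of 8 genes overlapped exons of another counted gene, and their counts are less certain because strand was not used in the counting. All 8 were without a name. This follows largely from the naming, which left out any locus that met more than 1 counted gene.

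The question of the feeding trial was how gene levels changed with dietary Ca. The mean level of all 101 genes was ordered 0.8, 1.0, 1.2% Ca from low to high, and the summed level averaged 3978 ± 1627 CPM (SD, n = 3), 5204 ± 1195 CPM (n = 4) and 6180 ± 1441 CPM (n = 3). Since the genes were chosen to follow ANLN over these kidneys, this shared direction repeats that of ANLN and is not 101 separate results. Kidneys of the same diet also differed from each other. The highest kidney was a median of 3.78 times the lowest at 0.8% Ca, 1.98 times at 1.0% Ca and 1.76 times at 1.2% Ca. The lowest at 0.8% Ca was replicate 1 for every gene of the set. The mean at 1.2% Ca was a median of 1.69 times that at 0.8% Ca (range 1.09 to 2.54). A range of single kidneys and a ratio of means are unlike measures. Differences between diets made up a median of 31.5% of the variance of the 100 genes, against 21.5% for the other genes. The share was 35.4% for ANLN, which the 100 genes follow by choice. Some variance falls between groups without any effect of diet, and that share was not computed.

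No gene of the set was called between diets by the tests run here. The calls behind the names came from Cuffdiff in the study, whose results were not used. With edgeR's quasi-likelihood test over 12187 genes and adjustment by the Benjamini-Hochberg method, the count of genes called was 0 (0%) for the slope on Ca at an adjusted p under 0.1 and for each of the 3 pairs of diets at an adjusted p under 0.05. Before adjustment, 1099 genes for the slope, 1034 for 1.0 against 0.8% Ca, 1075 for 1.2 against 0.8% Ca and 448 for 1.2 against 1.0% Ca had p under 0.05. The likelihood ratio test of edgeR called 35 genes (0.287%) for the slope, 22 (0.181%), 19 (0.156%) and 3 (0.0246%) for the pairs in that order, and 0 of the 101 genes were among them. At an unadjusted p under 0.05 and higher with more Ca stood 19 of the 101 genes for the slope (3.26% of all genes tested) and 14 for 1.2 against 0.8% Ca (3% of all genes tested), and 0 for 1.0 against 0.8% Ca (2.64%) and for 1.2 against 1.0% Ca (2.31%). These counts were not read further, because the genes share the pattern of ANLN by choice.

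Between 1.2 and 0.8% Ca, ANLN differed by 1.23 on the log2 scale (SE 0.600, adjusted p = 0.581 by edgeR's quasi-likelihood test). For 1.0 against 0.8% Ca the difference was 0.70 (SE 0.567, adjusted p = 0.739 by the same edgeR test), and for 1.2 against 1.0% Ca 0.53 (SE 0.546, adjusted p = 0.961 by the same edgeR test). The largest difference of the set between 1.2 and 0.8% Ca was that of NCAPG2, at 1.34 (SE 0.477, adjusted p = 0.471 in the same edgeR fit), and the smallest that of ENSGALG00000014286, at 0.13. The median over the 101 genes was 0.75 for 1.2 against 0.8% Ca, 0.45 for 1.0 against 0.8% Ca and 0.30 for 1.2 against 1.0% Ca, and over all genes tested it stayed between −0.0021 and 0.01. All 101 differences were above 0 in each pair, against 51.7, 52.4 and 49.5% of all genes tested, and all 101 slopes were above 0, against 51.6%. Every 1.2% Ca kidney stood above every 0.8% Ca kidney for 22 of the 101 genes, among them ANLN, KPNA2, CENPE, ASPM, STMN1, CCNB2, POLQ, BUB1, DLGAP5 and NCAPG2, against 6.91% of the genes of mean CPM 5 or more. No gene of the set separated 1.0 from 0.8% Ca (3.03% of genes did) or 1.2 from 1.0% Ca (2.97%).

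The differences depended on single kidneys. Without replicate 1 at 0.8% Ca the median over the 101 genes was 0.38 for 1.2 against 0.8% Ca and 0.09 for 1.0 against 0.8% Ca, and 76 of the 101 genes were then above 0 in the second of these. Without replicate 1 at 1.2% Ca the median was 0.51 for 1.2 against 0.8% Ca and 0.05 for 1.2 against 1.0% Ca, with 74 genes above 0 in the second. For 1.2 against 1.0% Ca it was 0.14 without replicate 3 at 1.0% Ca, and it reached 0.46 when replicate 3 at 1.2% Ca was left out. For 1.0 against 0.8% Ca the median was 0.75 without replicate 3 at 0.8% Ca, and for 1.2 against 0.8% Ca it was then 1.07. Without both kidneys, which was tried after the values were seen, the medians were 0.14 for 1.2 against 0.8% Ca, 0.09 for 1.0 against 0.8% Ca and 0.06 for 1.2 against 1.0% Ca. ANLN itself then differed by 0.33 between 1.2 and 0.8% Ca (SE 0.360), and RRM2 by −0.11.

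The lanes moved with the set as well. Within 1.0% Ca, both lanes were used. There the 2 kidneys of lane 1 were above the 2 kidneys of lane 2 by a median of 0.66 on the log2 scale. All 101 genes were above 0 (0.81 for ANLN). The medians of the set in these kidneys were 0.43 and 0.40 on lane 1, and −0.47 in replicate 3 and −0.0012 in replicate 4 on lane 2. The genes follow ANLN by choice, so counts above 0 by lane are not separate results. The same shares over all genes were not computed. Within lane 1 the difference of 1.2 against 1.0% Ca had a median of −0.0029 over the set, with 49 of 101 genes above 0. Within lane 2 the difference of 1.0 against 0.8% Ca had a median of 0.23, with 97 above 0. These differences between and within lanes are of mean log2(CPM + 0.5). They are not edgeR fits and are not the same measure as the edgeR differences above and below. That lane 2 difference leaned on replicate 1 at 0.8% Ca, where the median level of the set relative to each gene's own mean was −1.66. Replicates 3 and 4 at 0.8% Ca had 0.12 and −0.04, and replicates 3 and 4 at 1.0% Ca had −0.47 and −0.0012. In the edgeR fit with lane as a covariate the medians were 0.14 for 1.2 against 0.8% Ca, 0.10 for 1.0 against 0.8% Ca and 0.03 for 1.2 against 1.0% Ca. The box plot of these differences shows the 3 pairs side by side. Only the 1.0% Ca kidneys carry the separation of lane and diet in that fit, and 2 birds a lane do not separate birds from lanes.

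**Figure D4:**
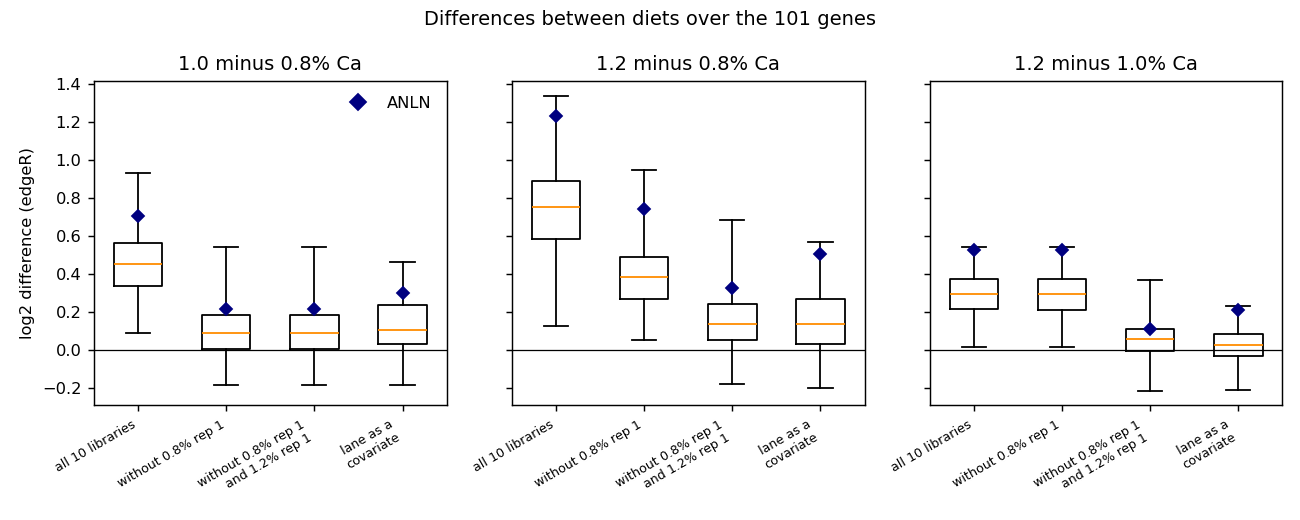
log2 differences of the 101 genes between diets (vertical axis, edgeR) for 1.0 minus 0.8%, 1.2 minus 0.8% and 1.2 minus 1.0% Ca, with all 10 libraries, without replicate 1 at 0.8% Ca, without that and replicate 1 at 1.2% Ca, and with lane as a covariate. Boxes span the quartiles with the median in orange, whiskers reach the lowest and highest gene, and diamonds mark ANLN. The median for 1.2 minus 0.8% Ca is 0.75 with all libraries and 0.14 in the last 2 settings.

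Markers of other cells were set beside the extreme kidneys for the genes that could be identified. Of the markers, 2 identifiers carry the name KLF2, a transcription factor of endothelium, in the tables of the study. ENSGALG00000003939, which the study ties to that name by its identifier, had r = −0.517 with ANLN, with 385.0, 352.7 and 295.2 CPM at 0.8% Ca, 234.0, 294.4, 187.3 and 351.7 CPM at 1.0% Ca, and 158.1, 154.8 and 202.3 CPM at 1.2% Ca. ENSGALG00000010101, named only through its locus, had r = −0.892, with 147.5, 91.7 and 99.9 CPM at 0.8% Ca, 78.0, 72.7, 122.5 and 96.8 CPM at 1.0% Ca, and 51.7, 76.7 and 72.5 CPM at 1.2% Ca. Over the 8 middle kidneys r was 0.07 for the first identifier and −0.867 for the second, and it was −0.02 for APOLD1, another endothelial gene, against −0.679 over all 10. The stromal genes RELN, COL8A1 and MFAP5 had r of 0.406, 0.405 and 0.704 over all kidneys and between −0.15 and 0.08 over the 8. The genes of white blood cells GAL1, GAL2 and LECT2 had r of 0.282, 0.301 and 0.352 over all kidneys and 0.364, 0.326 and 0.387 over the 8. Like ANLN, these genes were all highest in replicate 1 at 1.2% Ca (102.7, 98.8 and 461.4 CPM). LECT2 had 137.0 CPM in replicate 1 at 0.8% Ca, level with 137.2 CPM in replicate 3 of that diet. The part of these cells in the levels of the division genes was not tested.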

How the data were processed

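Kidney RNA of 10 broilers was sequenced as read pairs, with a TruSeq mRNA library for each bird. Read trimming by the authors used Trimmomatic, alignment to Galgal4 used HISAT2 2.0.4, and featureCounts 1.5.0-p3 assigned read pairs to exons of Ensembl 84 genes without regard to strand. The deposited values are raw counts of fragments, not normalized.

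CPM were computed on column totals. Genes were named through the tables of the study, by identifier or by a locus that covered at least 50% of the span of 1 counted gene (148 loci matched and 12 did not). None of the 17108 identifiers was found in the RefSeq table, so no sequences are printed. The members and lists were chosen with earlier results of these data known. The genes named are ANLN, the 15 members of highest r, every named member, the 3 of lowest r in the set, the 3 just below its limit, the 3 of lowest r overall and the identified genes of the lists. The other identifiers were picked out after their values were seen.

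Counts were tested in R 4.3.3 with edgeR 4.0.16 (filterByExpr, TMM, quasi-likelihood, two-sided, all 10 libraries with 1 shared spread, Benjamini-Hochberg over 12187 genes). As alternatives, edgeR's likelihood ratio test, limma-voom 3.58.1, DESeq2 1.42.0, other scalings, filters and pseudocounts, lane, a replicate block and each library left out were tried. The SE of a log2 difference was derived as its absolute value divided by the square root of the quasi-likelihood F statistic. The code was tested on simulated data. Birds were treated as the replicates, so the tests set differences between diets against the spread between birds. In the study, diets were allotted to replicate groups kept in pens, and pen was not part of the fits. The birds sampled had body weights near the mean of their diet, so they were not a random draw.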

Additional observations from a re-analysis of the deposited data

How the results depend on the processing

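The choice of the set depended more on the measure of likeness than on scaling. Of the 101 genes, 98 to 100 were also chosen with TMM-scaled CPM or pseudocounts of 0.1, 1 and 2, 99 and 93 with a mean CPM of 1 or 10, 88 and 85 after lane or diet means were taken out, and 71 (without replicate 1 at 0.8% Ca) to 96 with 1 library left out. Spearman's rho gave 51, and leaving out both extreme kidneys, chosen after seeing the data, gave 55. Genes called over the whole table were 35 (likelihood ratio test) and 56 (DESeq2) for the slope, 22 and 30 for 1.0 against 0.8% Ca, 19 and 42 for 1.2 against 0.8% Ca, and 3 and 3 for 1.2 against 1.0% Ca, in place of 0, and limma-voom called 0 in each. With 1 library left out, the quasi-likelihood test called 0 to 44 genes for the slope (44 without replicate 3 at 1.2% Ca), 0 to 2 for 1.0 against 0.8% Ca (2 without replicate 2 at 1.2% Ca), 0 to 0 for 1.2 against 0.8% Ca and 0 to 1 for 1.2 against 1.0% Ca (1 each when replicate 3 at 1.0% Ca or replicate 2 at 1.2% Ca was dropped). In all of these, 0 of the 101 genes were called. The median difference of the set with 1 library left out was 0.40 to 1.02 for the slope, 0.09 to 0.75 for 1.0 against 0.8% Ca, 0.38 to 1.07 for 1.2 against 0.8% Ca and 0.05 to 0.46 for 1.2 against 1.0% Ca. The cause of these changes was not tested. Of the differences of the 28 named genes, 30 of 1008 moved by more than 1 SD within diets under other alternatives and 0 of 1120 with 1 library left out. That SD was taken over all libraries and includes both extreme kidneys, so these counts cannot show that the differences are stable. ANLN fell from 1.23 to 0.74 for 1.2 against 0.8% Ca without replicate 1 at 0.8% Ca and still counted as not moved.

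Replicate numbers were not taken to pair the kidneys. The deviations of the 8 pairs of libraries with the same number had r of −0.455 to 0.252 (median −0.09). The 25 pairs with different numbers had r of −0.400 to 0.514 (median 0.02). The fit with the replicate block called 0 genes in each comparison, as did the fit without it, so these calls do not bear on pairing. Depth limits the low end, since 14 of the 101 genes had fewer than 20 counts in the lowest kidney, with a lowest count of 10.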
